A study of Homo sapiens with 6 samples.

Results

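Matrix metalloproteinases (MMPs) and the tissue inhibitors that bind them (TIMPs) were followed in MDA-MB-231 cells that had been grown in 10 mM fructose or in 25 mM glucose. The 10 genes described are MMP1, MMP2, MMP3, MMP9, MMP10, MMP13, MMP14, TIMP1, TIMP2 and TIMP3, out of 18404 genes with a probe set of their own on the array. Members were found by gene symbol in the platform annotation, which gave 11 probe sets, and where a gene had several, the one brightest on average over the 6 arrays (mean of log2 values) stood for it. The family was chosen by its measured fructose and glucose levels, with the higher MMP1 level in fructose already known, so the MMP1 difference is given as a description and supports nothing by itself. The question asked of the other members is whether they differ in the way MMP1 does, first among the neighbours of MMP1 in the gene cluster at chromosome band 11q22 and then across the family.

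The fructose group held 3 cultures kept in DMEM with 10 mM fructose, which the labels call non-glycolytic, and the glucose group held 3 cultures kept in DMEM with 25 mM glucose, which they call glycolytic. All 6 were the same established line, MDA-MB-231, which comes from a human breast cancer without hormone receptors or HER2, and the labels name no further treatment. Each replicate was a batch adapted separately for 25 days, and RNA was taken near 70% confluency, some 24 hours after the medium was renewed. The sugar and its concentration differed together, and the 2 cannot be told apart. Values are RMA intensities, the brightness of a probe set after background correction and normalization between arrays, and differences are fructose minus glucose on the log2 scale, so that 1 means a doubling. The test was limma's moderated test with Benjamini-Hochberg adjustment over all 28230 tested probe sets and a threshold of 0.05.

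MMPs are zinc-dependent proteases that cut collagens, laminins and other proteins of the extracellular matrix, and most are secreted as inactive proenzymes that another protease must cleave. TIMPs are small secreted proteins that plug the active site of these enzymes. In breast cancer MMP1 is best known as a collagenase that tumour cells use to open fibrillar collagen, and MDA-MB-231 is a line widely used to study invasion. Transcripts were measured here, and neither protein nor enzyme activity was.

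Arrays carry no detection call, so a benchmark for dim signal was taken from 350 probe sets of olfactory receptor genes, which breast cells are not known to use. Their 95th percentile lay at an intensity of 24.5, and a gene is called dim below where both group means lay under it. By this benchmark 5 members were not dim, MMP1, MMP14, TIMP1, TIMP2 and TIMP3, and 5 were dim on both sugars, MMP2, MMP3, MMP9, MMP10 and MMP13. The line's own markers VIM, CD44, AXL, CAV1, MSN and S100A4 were all far above it, and ESR1, PGR, CDH1 and KRT20 were dim, whereas GATA3 was not, at 61.5 to 92.9. Fibroblasts are a main source of MMP1 in tissue, and 7 of their 8 markers were dim, all but COL1A1, with a summed intensity over the list of 125 to 131 in fructose and 130 to 139 in glucose. Markers of leukocytes were dim for 4 of 5 genes, all but CSF1R, those of endothelium for 3 of 4, all but PECAM1, and those of luminal breast cells for 3 of 6. On the first principal component, which held 28.8% of the variance, fructose replicate 2 lay at -5.67, between fructose replicates 1 and 3 (-17.9 and -19.3) and the glucose arrays (13.5 to 14.8).

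No member passed the test over all probe sets, where a single probe set passed, that of TXNIP, a glucose-responsive gene outside this family (0.00354% called), and 4 members had an unadjusted p under 0.05 (13.1% of all probe sets). The MMP1 level was 2.58-fold higher in fructose, the TIMP1, MMP14 and TIMP2 levels were higher by 1.07-fold to 1.19-fold, TIMP3 overlapped between the sugars, and the other 5 members were dim. The fructose arrays lay above all glucose arrays for 4 of the 10 members, MMP1, MMP14, TIMP1 and TIMP2, and below them for none, beside 11.4% of all tested probe sets with fructose above, 8.81% with fructose below and 20.2% in either direction. Because the contrast had a part in the choice of the members, nothing is read from these counts. The median difference was 0.07 over the 10 members and 0.05 over the other 9 without MMP1, where the median over all tested probe sets was 0.02 and 56.5% of all genes were higher in fructose. Without fructose replicate 2 the arrays parted for 7 members, 6 with fructose above and TIMP3 with fructose below, and they then parted for 33.3% of all tested probe sets.

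**Figure D1:**
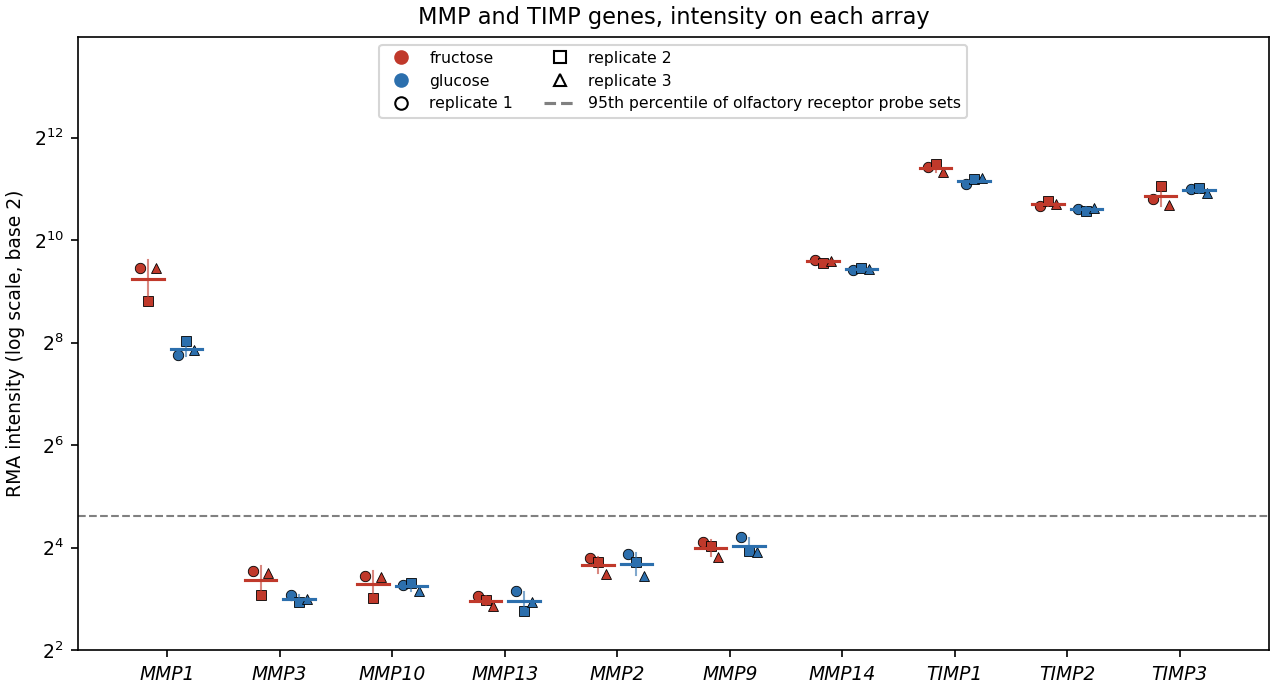
RMA intensity (log scale, base 2) of each MMP and TIMP gene on each array, fructose in red left of glucose in blue, with marker shapes for replicates, horizontal bars for group means of log2 values and vertical lines for 1 SD (n = 3). MMP1, MMP14 and the TIMP genes lie far above the dashed benchmark at 24.5, and MMP2, MMP3, MMP9, MMP10 and MMP13 lie below it on every array.

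MMP1, the interstitial collagenase that makes the first cut in fibrillar collagen, had the largest positive difference of all 18404 genes. Its probe set, 7951271, read 706, 449 and 703 on fructose replicates 1, 2 and 3, against 216, 261 and 230 on glucose replicates 1, 2 and 3. Every fructose array lay above every glucose array, with fructose replicate 2 nearest to them. The difference was 1.37 (SE 0.18, 95% interval 0.94 to 1.80), a 2.58-fold higher level, from log2 SDs of 0.37 in fructose and 0.14 in glucose (n = 3 each). In limma's test over all probe sets its adjusted p was 0.13, above the threshold, and its unadjusted p was the 25th smallest of 28230. Without fructose replicate 2 the difference was 1.58, with a limma adjusted p of 0.058. The adjusted p was 0.030 among the brighter probe sets alone, 0.033 with an intensity trend and robust variances, 0.042 with 16 added to each intensity, and between 0.058 and 0.37 under the other alternatives, so the call of MMP1 depends on the setting. In bulk cultures a larger share of cells with MMP1 RNA and more of it per cell cannot be told apart.

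MMP1 lies among 8 other MMP genes at 11q22, in the order MMP7, MMP20, MMP27, MMP8, MMP10, MMP1, MMP3, MMP12 and MMP13. Its nearest neighbours are MMP10 and MMP3, the stromelysins, which cut a broad range of matrix proteins and can activate other proenzymes, MMP1 among them. All 8 were dim on both sugars, with intensities of 4.77 to 12.0 over the arrays, and none passed the test. At an unadjusted p under 0.05 there were 3 (MMP3, MMP20 and MMP27), beside 13.1% of all probe sets. The highest upper bound of a 95% interval among the 8 was 0.69, in MMP3, and no test set these genes against MMP1. A dim probe set shows less of a change than a bright one, and how much of a difference could be seen at these intensities was not tested.

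MMP3 had intensities of 11.7, 8.39 and 11.4 on the fructose arrays, against 8.39, 7.65 and 8.01 on the glucose arrays. Replicates 1 and 3 in fructose were above all glucose arrays, and fructose replicate 2 read the same as the highest glucose array to 3 digits, lying just under it. The difference was 0.37 (SE 0.13, 95% interval 0.06 to 0.69, limma adjusted p = 0.32), and 0.53 without fructose replicate 2 (adjusted p = 0.14). MMP10 read 10.8, 8.06 and 10.8 in fructose, against 9.67, 9.98 and 8.86 in glucose. Its fructose arrays lay on both sides of the glucose arrays, with replicate 2 lowest again, and the difference was 0.05 (95% interval -0.25 to 0.35). Fructose replicate 2 was therefore the lowest of the 3 fructose arrays for MMP1, MMP3 and MMP10 alike. It was also lowest for MMP7, MMP8, MMP12 and MMP14, but not for MMP13, MMP20 or MMP27. Its array median was the lowest of the fructose arrays too (31.7, against 33.1 and 33.5). How often it was lowest over all probe sets was not counted.

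MMP13, a collagenase of cartilage and bone, read 8.31, 7.89 and 7.29 in fructose, against 8.86, 6.82 and 7.62 in glucose. The groups overlapped fully and the difference was 0.02 (95% interval -0.24 to 0.28). Among the other MMP genes of the cluster, MMP27 was higher by 0.21 (adjusted p = 0.35 by limma) with no overlap, and MMP20, an enzyme of tooth enamel, differed by -0.24 (adjusted p = 0.28) with all fructose arrays below. MMP12, a macrophage elastase, differed by -0.20, MMP7, or matrilysin, by 0.03, and MMP8, a neutrophil collagenase, by -0.01. So 5 of the 8 were higher and 3 lower in fructose, around a median of 0.02, which is also the median over all tested probe sets.

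The measured genes that flank the cluster were not dim, and their differences were small. BIRC3, also listed as a flanking gene, was not measured here. PDGFD was not dim by its fructose mean alone (27.3), its glucose mean of 24.4 lying just under the benchmark. Of the 6 measured, 2 were higher, YAP1, a coactivator of the Hippo pathway (0.16), and the growth factor PDGFD (0.16), and 4 were lower in fructose. BIRC2, an inhibitor of apoptosis, read 451, 430 and 445 in fructose, against 505, 488 and 478 in glucose, a difference of -0.15 (adjusted p = 0.39 by limma). TMEM123 differed by -0.18, DCUN1D5 by -0.19 and DYNC2H1, a motor of cilia, by -0.16. The highest upper bound of a 95% interval among these 6 was 0.41, for PDGFD, and none passed the test, with DCUN1D5 alone at an unadjusted p under 0.05.

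**Figure D2:**
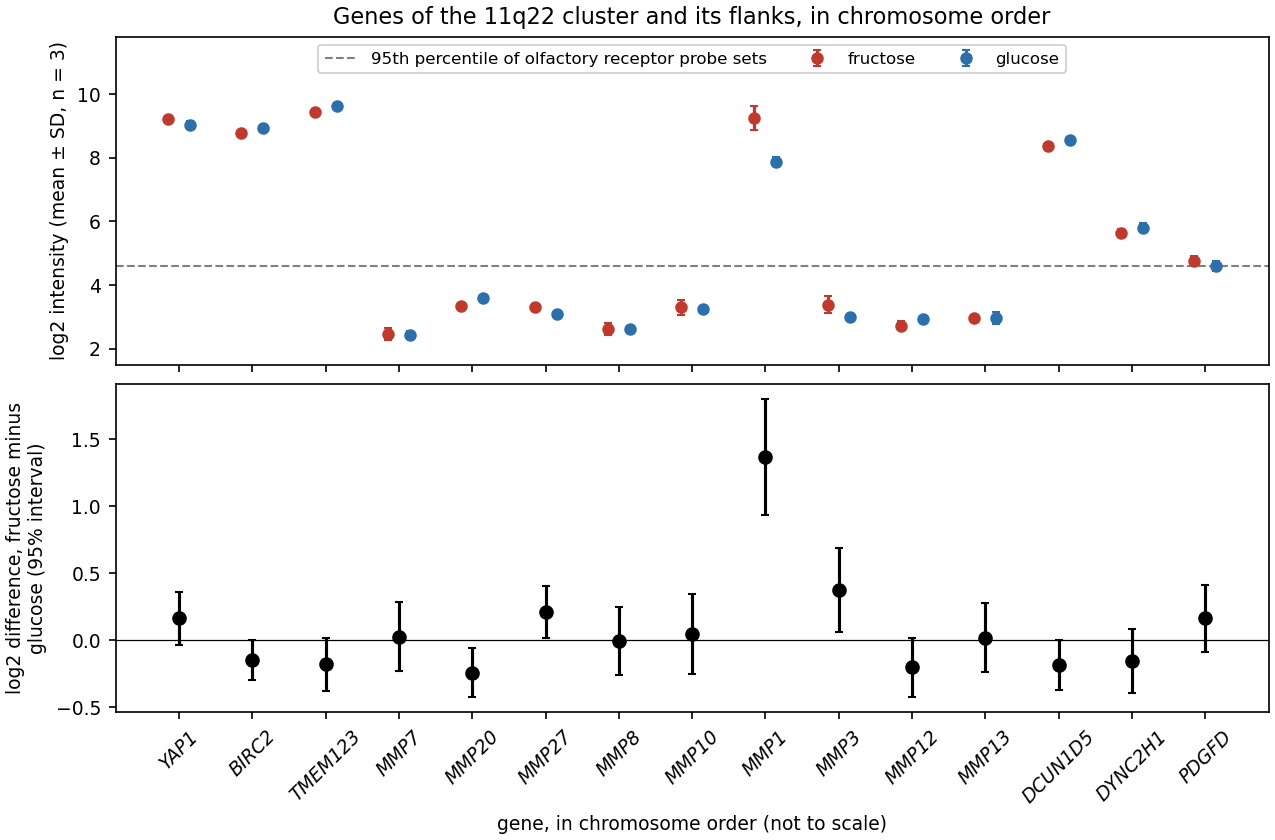
Log2 intensity (upper panel, mean ± SD, n = 3, fructose in red left of glucose in blue) and log2 difference, fructose minus glucose (lower panel, with 95% intervals), for the 15 measured genes of the 11q22 cluster and its flanks in chromosome order. MMP1 stands at 1.37 between MMP10 at 0.05 and MMP3 at 0.37, and the 8 other MMP genes lie under the dashed benchmark.

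Promoter windows from RefSeq (build GRCh38.p14) were matched for 4 of the 10 members, MMP10, MMP14, TIMP1 and TIMP3, and for 5 of the 9 MMP genes of the cluster. The 120 bases before the annotated start are shown for those 4 members and for MMP7 and MMP20. MMP7 and MMP20 are the matched cluster genes besides MMP10 that hold both patterns described next, so the printed windows are a selection. Windows of MMP8 and MMP27 were matched but are not shown, and MMP1 itself had no matched window. Capitals mark matches to TGANTCA, a loose pattern for AP-1 in which N is any base, and to TATAAA, the TATA box that positions RNA polymerase. AP-1 factors are dimers of JUN and FOS proteins, long studied as regulators of collagenase and stromelysin genes. The first pattern was met by TGAGTCA in MMP7 and by TGAATCA in MMP10 and MMP20.
MMP10 (chr11:102780629-102780748, minus strand): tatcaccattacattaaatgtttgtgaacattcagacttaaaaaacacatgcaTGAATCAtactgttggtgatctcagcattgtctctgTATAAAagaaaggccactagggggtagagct
MMP7 (chr11:102530748-102530867, minus strand): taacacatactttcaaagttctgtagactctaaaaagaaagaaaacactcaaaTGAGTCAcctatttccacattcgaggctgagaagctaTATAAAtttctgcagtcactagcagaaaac
MMP20 (chr11:102625333-102625452, minus strand): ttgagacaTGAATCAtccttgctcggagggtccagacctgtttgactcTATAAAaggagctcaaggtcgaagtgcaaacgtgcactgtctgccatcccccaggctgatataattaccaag
MMP14 (chr14:22836465-22836584, plus strand): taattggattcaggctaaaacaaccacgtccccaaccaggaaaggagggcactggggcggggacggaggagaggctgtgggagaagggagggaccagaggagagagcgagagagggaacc
TIMP1 (chrX:47582316-47582435, plus strand): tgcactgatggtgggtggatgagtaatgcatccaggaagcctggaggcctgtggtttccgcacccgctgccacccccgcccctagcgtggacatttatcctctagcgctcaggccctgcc
TIMP3 (chr22:32801585-32801704, plus strand): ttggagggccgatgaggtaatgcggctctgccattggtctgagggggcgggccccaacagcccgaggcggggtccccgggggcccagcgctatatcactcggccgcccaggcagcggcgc
Both letter strings were searched on both strands in the 250 bases before each start, and no marked match overlaps another. MMP10 and MMP7 each hold TGANTCA at 67 bases before the start and a TATA box at 31 and 30 bases, and MMP20 holds them at 112 and 72 bases. Of the 5 matched cluster genes 3 hold TGANTCA and 4 hold TATAAA, MMP8 being the additional gene, and MMP27 holds neither string. MMP14, TIMP1 and TIMP3 hold neither string, and their windows are richer in G and C, with 56.8%, 64.8% and 72.4% against 34.4% in MMP10. Of all 35116 promoter windows in RefSeq's set, 6.57% hold TGANTCA, 10.7% hold TATAAA and 1.07% hold both. A match is only a stretch of letters, and MMP10, which has both, was dim and differed by 0.05.

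MMP14 is a protease anchored in the cell membrane that cleaves collagen at the cell surface and activates pro-MMP2 together with TIMP2. It read 784, 753 and 772 on the fructose arrays, against 679, 701 and 695 on the glucose arrays. All fructose arrays were above all glucose arrays, and replicates lay close together, with log2 SDs of 0.03 in fructose and 0.02 in glucose. The difference was 0.15 (SE 0.06, 95% interval 0.01 to 0.30, limma adjusted p = 0.36), a 1.11-fold higher level.

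The gelatinases MMP2 and MMP9, which cut denatured collagen and basement membrane, were dim and differed little. MMP2 read 13.9, 13.1 and 11.2 in fructose, against 14.7, 13.2 and 10.9 in glucose (difference -0.02, 95% interval -0.33 to 0.29). MMP9 read 17.4, 16.3 and 14.1 in fructose, against 18.6, 15.3 and 15.1 in glucose (difference -0.04, 95% interval -0.31 to 0.24). Both groups overlapped in both genes, and both signs turned when single arrays were left out.

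TIMP1, a secreted inhibitor that also binds the proenzyme of MMP9, was the inhibitor with the highest difference. It read 2739, 2858 and 2556 in fructose, against 2193, 2323 and 2359 in glucose. All fructose arrays were above all glucose arrays, and here fructose replicate 2 was the highest, unlike in MMP1. The difference was 0.25 (SE 0.07, 95% interval 0.07 to 0.42, limma adjusted p = 0.26), a 1.19-fold higher level, and the adjusted p was 0.034 with an intensity trend and robust variances.

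TIMP2, which blocks MMP14 in excess and in small amounts bridges it to pro-MMP2, read 1628, 1732 and 1658 in fructose, against 1562, 1519 and 1589 in glucose. The groups did not overlap but lay close, with a difference of 0.10 (95% interval -0.05 to 0.26, adjusted p = 0.55 by limma). TIMP3, which stays bound to the matrix and also inhibits ADAM proteases, read 1789, 2136 and 1645 in fructose, against 2041, 2080 and 1930 in glucose. Fructose replicates 1 and 3 were below all glucose arrays and replicate 2 above them, and the difference was -0.13 (95% interval -0.38 to 0.12, adjusted p = 0.66), or -0.23 without fructose replicate 2. A further TIMP3 probe set, 8072626, had the same direction at -0.10. Fructose replicate 2 was thus highest of its group in TIMP1, TIMP2 and TIMP3. It was lowest in MMP1, MMP3, MMP10 and MMP14, and in the middle in MMP2, MMP9 and MMP13.

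**Figure D3:**
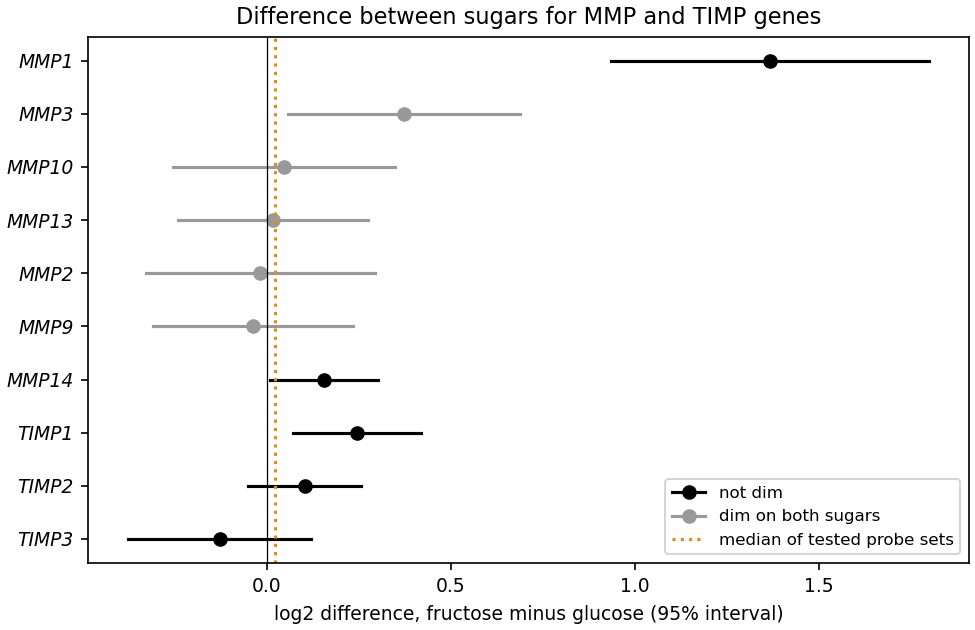
Log2 difference, fructose minus glucose, with 95% limma intervals for each MMP and TIMP gene, in black where the gene was not dim and in grey where it was dim on both sugars; the dotted line marks the median of all tested probe sets (0.02). MMP1 stands at 1.37, and the upper bounds of the other 9 members reach 0.69 at most, in MMP3.

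Since enzyme and inhibitor act together, changes of their ratios within each array are also given as descriptions. The ratio of MMP1 to TIMP1 was higher than its glucose mean by 1.33, 0.62 and 1.42 (log2) on fructose replicates 1, 2 and 3, where the glucose arrays deviated by -0.06, 0.13 and -0.07. That is a mean of 1.12, or 2.18-fold, and all fructose arrays lay above all glucose arrays. Both follow largely from the known MMP1 difference (1.37), less that of TIMP1 (0.25), and are no further result. The ratio of MMP14 to TIMP2, the pair that handles pro-MMP2, deviated by 0.12, -0.03 and 0.07 in fructose and by -0.03, 0.05 and -0.02 in glucose. These groups overlapped, and the mean was 0.05.

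Across the rest of the family, 15 of 16 listed MMP genes had a probe set of their own, and MMP23B shared one and was not analysed here. Of the 15, 7 were higher and 8 lower in fructose, around a median of -0.01. Past limma's adjusted threshold there were 0, and 2 had an unadjusted p under 0.05, beside 13.1% of all probe sets. Only MMP11, MMP21, MMP24, MMP25 and MMP28 were not dim, and of these MMP21 had the largest difference (0.25, adjusted p = 0.49) and MMP11, a stromelysin-like enzyme first known from breast cancer stroma, differed by 0.05. Over all 22 measured MMP genes 15 were dim, and the difference of MMP1 was 1.37 where the highest among the other 21 was 0.37. None of 7 other inhibitors passed (2 higher, 5 lower, median -0.07), with SPOCK1 alone at an unadjusted p under 0.05. RECK, a membrane-anchored inhibitor of several MMPs, differed by -0.16, SPOCK1, a proteoglycan, by -0.29, PZP by -0.14 and TIMP4 by -0.07.

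Proenzyme activation and tethering at the cell surface bring in further genes, of which 18 of 19 were measured, with 11 higher and 7 lower in fructose (median 0.03). Of these, 0 were past the adjusted threshold and 4 at an unadjusted p under 0.05, all higher. At that p 7.65% of all probe sets were higher and 5.43% lower. PLAT and PLAU, the plasminogen activators whose product plasmin cleaves MMP proenzymes, were both above glucose on every array. PLAT read 470, 465 and 476 in fructose, against 316, 359 and 355 in glucose, a difference of 0.46 (adjusted p = 0.14 by limma). PLAU differed by 0.33 (adjusted p = 0.20) and LRP1, an endocytic receptor that clears MMP and inhibitor complexes, by 0.20. In contrast to MMP1, PLAT was as high on fructose replicate 2 as on the other fructose arrays. BSG, or EMMPRIN, a surface protein that induces MMPs in neighbouring cells, differed by 0.04, CD44, a docking site for MMP9, by 0.07, and F2R, the thrombin receptor that MMP1 can cleave, by -0.07.

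Transcription factors reported to act on MMP promoters were all measured, 19 of 19, with 13 higher and 6 lower in fructose (median 0.09) and 0 past the adjusted threshold, and at an unadjusted p under 0.05 there were 5 higher and 2 lower, where 7.65% and 5.43% of all probe sets were. The AP-1 subunits went both ways. FOSL1 read 466, 446 and 467 in fructose, against 390, 401 and 405 in glucose (0.21, adjusted p = 0.26), and JUN read 183, 188 and 186 in fructose, against 207, 209 and 225 in glucose (-0.20, adjusted p = 0.29). CEBPB, a factor of inflammatory genes, was higher by 0.32 (adjusted p = 0.29), FOS differed by 0.04 and ETS1, an ETS factor that pairs with AP-1, by 0.14. Of the signals listed as inducers of MMP genes, 10 of 11 measured were higher (median 0.12), where 56.5% of all genes were higher. Past limma's adjusted threshold there were 0, and 3 had an unadjusted p under 0.05. Whether each of these signals raises or lowers MMP1 in this line was not tested. The 10 include the dim genes IL1A, IL1B, OSM and FGF2 and EREG at 0.0057, and the 3 smallest p values belonged to TGFB1, LIF and TGFA, with LIF at 0.30, TGFB1 at 0.27 and TGFA at 0.27, while IL1B stood at 0.05 and TNF at -0.19.

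Among related proteases of the ADAM and ADAMTS families, 7 of 14 measured were higher and 7 lower (median 0.0047). Of these, 0 were past the adjusted threshold and 3 at an unadjusted p under 0.05, beside 13.1% of all probe sets. ADAMTS1, which cuts the proteoglycans aggrecan and versican, read 199, 166 and 174 in fructose, against 129, 124 and 124 in glucose, a difference of 0.51 (adjusted p = 0.14 by limma), and ADAMTS9 differed by 0.50 and ADAMTS6 by 0.23. ADAMTS9 was not dim by its fructose mean alone (26.0), its glucose mean of 18.4 lying under the benchmark. ADAM10 and ADAM17, the main sheddases, stood at -0.14 and -0.10. Of 17 measured matrix proteins 9 were higher and 8 lower (median 0.0055). Again 0 were past the adjusted threshold and 3 at an unadjusted p under 0.05, beside the same 13.1%. COL6A1 was higher by 0.37 and TNC, or tenascin C, differed by -0.35, each with no overlap, FN1, or fibronectin, differed by -0.16, and COL1A1, which encodes a chain of the fibrillar collagen that MMP1 cleaves, differed by -0.15. Over these 6 lists, members aside, 86 genes were measured and their highest difference was 0.51.

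**Figure D4:**
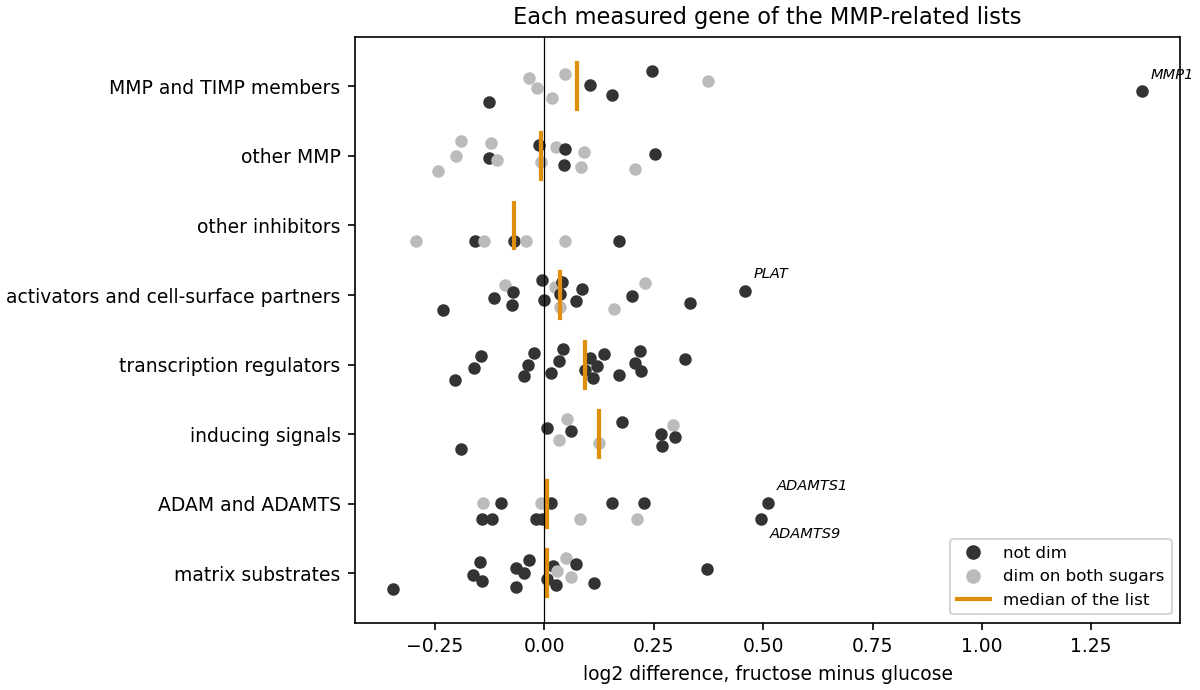
Log2 difference, fructose minus glucose, of every measured gene in the MMP and TIMP set and in 7 related lists, in black where not dim and in grey where dim on both sugars, with the median of each list as an orange bar (vertical jitter has no meaning). MMP1 at 1.37 lies apart from all others, of which ADAMTS1 at 0.51, ADAMTS9 at 0.50 and PLAT at 0.46 come next. ADAMTS9 is black by its fructose mean alone, its glucose mean (18.4) lying under the benchmark of 24.5.

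The genes whose profile was most like that of MMP1 were sought by the root mean square difference of log2 deviations over the 6 arrays, among brighter genes. SCG5, a secretory chaperone of neuroendocrine cells, was nearest at 0.24, followed by RPS6KA2, a ribosomal S6 kinase (0.25), CYP1B1, a cytochrome P450 (0.26), CHAC1, which degrades glutathione (0.31), and CTH, which makes cysteine (0.31). In all 5 every fructose array lay above every glucose array, and none passed the test. The differences of their group means were 0.80 to 1.08, and on fructose replicate 2 the margin could be small. SCG5 read 86.8, 50.8 and 63.9 in fructose, against 29.2, 39.9 and 30.4 in glucose, and CTH read 360, 174 and 322 in fructose, against 150, 160 and 158 in glucose. Fructose replicate 2 was the lowest fructose array in these 5 genes as in MMP1. Because the 5 were picked for likeness to MMP1 on these same arrays, their direction and this order follow largely from the choice. The nearest genes to MMP14 were SH3BP5, KLHL2 and ZFP36L1, within 0.0086 to 0.010, and to TIMP3 PRRC2A, GSPT2 and MAPK9, within 0.024 to 0.029. The small distances for MMP14 go with its small spread over the arrays, with log2 SDs of 0.03 in fructose and 0.02 in glucose. TIMP3 spread more, with log2 SDs of 0.19 in fructose and 0.06 in glucose.

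**Figure D5:**
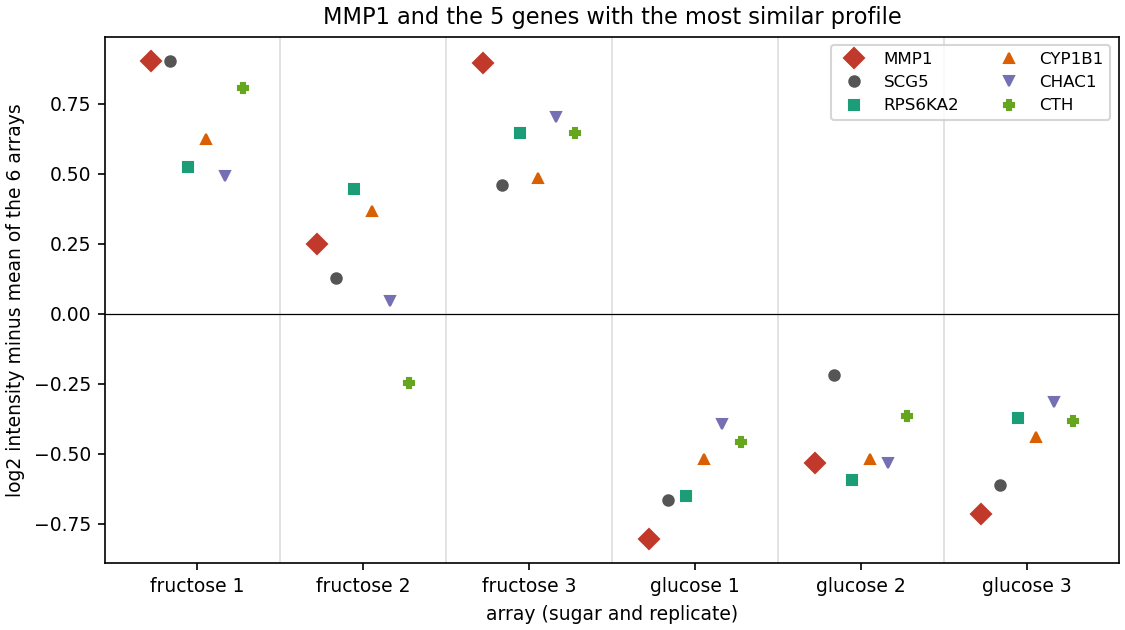
Log2 intensity minus the mean of the 6 arrays for MMP1 (red diamonds) and the 5 genes nearest to it in profile, on each fructose and then each glucose array. All 6 genes are above glucose on each fructose array and lowest in their group on fructose replicate 2. The 5 were picked for likeness to MMP1 on these arrays. On fructose replicate 2 MMP1 stood 0.93 above its glucose mean, against 1.59 and 1.58 on fructose replicates 1 and 3.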

How the data were processed

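Total RNA from 6 cultures was labelled with biotin and hybridised to 1 array each. The deposited values are 1 intensity for each probe set on each array. Per the submitters' processing notes the authors used RMA, whose version and filters the sources used here do not give. The intensities (2.15 to 9287, array medians 31.5 to 33.5 over the tested probe sets) were read as linear and log2 was taken. Of 32321 probe sets, 4091 numbered below the first annotated one were left out as controls. The platform annotation paired 19158 of the 28230 tested probe sets with 1 gene, 1388 with several and 7684 with none. Arrays have no read depth, and 3 arrays per group limit the precision (median SE 0.095).

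Groups were compared with limma 3.58.1 in R 4.3.3 (lmFit, eBayes, two-sided, no covariate), after a test on simulated data. Members and lists were chosen with earlier results of these data known. Named genes were the 10 members, any measured gene of the MMP and 11q22 lists, the 3 smallest p values of each other list and the nearest profiles; other named genes (TIMP4, BSG, CD44, F2R, FOS, ETS1, IL1A, IL1B, OSM, FGF2, EREG, TNF, ADAM10, ADAM17 and COL1A1) were chosen after their values were seen. Alternatives tried were each array left out, a replicate block, repeated quantile normalization, median centring, brighter probe sets, a variance trend, array weights, no moderation, a pseudocount of 16, mean probe sets and kept controls.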

Additional observations from a re-analysis of the deposited data

How the results depend on the processing

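Of 155 member differences recomputed under the alternatives, 139 kept their direction without a call, 12 turned sign and 4 became calls. The sign turned in dim genes alone. MMP13 stood at -0.0089 after repeated quantile normalization and -0.0084 after median centring. With an array left out MMP13 ran from -0.072 to 0.116, MMP10 from -0.026 to 0.188, MMP2 from -0.135 to 0.081 and MMP9 from -0.102 to 0.059. The 1 probe set called became 325 among brighter probe sets, 473 with the variance trend, 202 with the pseudocount of 16 and 0 without moderation. The 0 members called (4 at an unadjusted p under 0.05) became 1 (MMP1), 2 (MMP1 and TIMP1) and 1 (MMP1) under the first 3 of these. The number of members without overlap, added after seeing the data, ran from 4 to 7 with an array left out, 7 without fructose replicate 2. Of all tested probe sets 20.2% had no overlap with every array kept, and 33.3% without fructose replicate 2. For the other left-out arrays that share was not computed, and nothing is read from the count. The replicate block changed no call (1 probe set, 0 members, MMP1 adjusted p = 0.37 by limma), and same-numbered arrays did not deviate together (correlations -0.03, -0.02 and -0.05). Whether the cultures were handled in pairs cannot be told from these correlations.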
